A study of Homo sapiens with 3 samples.

Results

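The DNA methylation writers and erasers were described at the start sites of 6 genes: DNMT1, DNMT3A, DNMT3B, UHRF1, TET1 and TET2. Their members were the CpGs, positions where a cytosine is followed by a guanine, within 3 kb of 1 start site per gene (GRCh37), with both strands summed and at least 10 reads in each of 3 libraries. Of 542 CpGs seen in these windows, 382 (70.5%) passed the minimum, out of 2238764 CpGs that passed it in the whole series. Within a window, CpGs were taken by position and depth and not by level. The question was whether the lower methylation of the knockout lines over all CpGs goes with a change at the promoters of the enzymes that write, keep and remove the mark.

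Methylation of cytosine at CpGs is set by the de novo enzymes DNMT3A and DNMT3B and copied after replication by DNMT1, which UHRF1 brings to newly replicated DNA. TET1 and TET2 oxidise methylated cytosine and so start its removal. Many promoters rich in CpGs carry little methylation in cells that use them, and dense methylation of such a promoter is often found with a silent gene.

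The libraries came from Hep3B, a liver cancer cell line, and from its derivatives in which SOX4, a transcription factor gene, was knocked out with CRISPR/Cas9. There was 1 library of parental cells, 1 of SOX4 KO #1 (line 1) and 1 of SOX4 KO #2 (line 2), with no other treatment in the labels. The labels do not say whether a line is 1 clone, so line, passage and loss of SOX4 cannot be told apart, and the edit itself was not examined here. Captured genomic DNA was bisulfite-treated, after which unmethylated cytosine is read as thymine, and the level of a CpG is the percentage of its reads called methylated.

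Reads over cytosines numbered 104702738 for parental cells, 96987706 for line 1 and 133170621 for line 2, and the median depths at the CpGs compared were 31, 28 and 39 reads. Parental cells had a mean level of 42.7% over all CpGs compared, line 1 had 38.7% and line 2 40.6%. For each CpG, methylated and unmethylated reads were compared between libraries by a 2-sided Fisher exact test. The p-values were adjusted over all 2238764 CpGs (Benjamini-Hochberg), and a CpG was called where the adjusted p was under 0.05 and the levels were 25 percentage points or more apart. With 1 parental library such a test compares libraries and not conditions, and intervals given for single CpGs (exact Clopper-Pearson, 95%) cover counting error only.

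Promoter sequences of 4 of the genes are shown: TET2 and UHRF1 because methylated and unmethylated CpGs lie near each other at their starts, and TET1 and DNMT3A because their promoter CpGs are those whose reads are counted below. They are RefSeq sequences (GRCh38.p14), 250 bases before to 50 bases after a start site, 5′ to 3′ on the gene's strand. CG in capitals marks a CpG that was compared, and cg in lower case a CpG that was not. They were placed on the GRCh37 positions by the spacing of their CpGs, with no conversion of coordinates.
TET2, first start site, chr4:105145625-105145924, + strand: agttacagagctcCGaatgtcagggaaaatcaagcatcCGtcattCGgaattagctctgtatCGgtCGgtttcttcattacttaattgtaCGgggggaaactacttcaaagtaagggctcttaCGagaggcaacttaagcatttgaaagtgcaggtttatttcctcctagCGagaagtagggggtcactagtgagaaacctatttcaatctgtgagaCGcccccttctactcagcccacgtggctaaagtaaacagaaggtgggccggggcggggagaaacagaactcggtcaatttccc
TET2, second start site, chr4:105146626-105146925, + strand: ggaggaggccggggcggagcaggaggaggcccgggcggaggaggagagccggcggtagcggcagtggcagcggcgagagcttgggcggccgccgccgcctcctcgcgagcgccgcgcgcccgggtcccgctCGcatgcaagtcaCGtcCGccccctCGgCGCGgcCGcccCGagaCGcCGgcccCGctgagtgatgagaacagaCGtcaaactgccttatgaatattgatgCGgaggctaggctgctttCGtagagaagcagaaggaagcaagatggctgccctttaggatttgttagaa
TET1, chr10:68560087-68560386, + strand: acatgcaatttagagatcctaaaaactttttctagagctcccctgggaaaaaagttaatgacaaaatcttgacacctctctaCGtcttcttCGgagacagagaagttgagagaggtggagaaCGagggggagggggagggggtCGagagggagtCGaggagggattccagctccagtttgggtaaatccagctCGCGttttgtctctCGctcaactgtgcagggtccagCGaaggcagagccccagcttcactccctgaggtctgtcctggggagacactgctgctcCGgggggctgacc
UHRF1, chr19:4909251-4909550, + strand: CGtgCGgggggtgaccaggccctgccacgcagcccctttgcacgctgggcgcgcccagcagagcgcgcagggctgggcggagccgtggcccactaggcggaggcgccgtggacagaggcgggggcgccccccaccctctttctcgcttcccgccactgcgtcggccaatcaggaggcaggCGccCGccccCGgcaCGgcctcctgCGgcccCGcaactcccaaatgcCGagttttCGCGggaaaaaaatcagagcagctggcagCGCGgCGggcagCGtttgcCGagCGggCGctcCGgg
DNMT3A, chr2:25342434-25342733, - strand: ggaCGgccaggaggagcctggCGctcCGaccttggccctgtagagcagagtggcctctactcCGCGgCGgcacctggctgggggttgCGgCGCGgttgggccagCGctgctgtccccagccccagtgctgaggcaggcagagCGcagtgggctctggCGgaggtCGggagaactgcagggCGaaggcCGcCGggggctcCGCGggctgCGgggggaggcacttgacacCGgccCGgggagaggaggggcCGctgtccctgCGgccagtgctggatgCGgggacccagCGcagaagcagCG
The first TET2 sequence holds 13 CpGs and the second, which starts 1001 bp further downstream, holds 35. Over their 9 and 14 compared CpGs the mean parental levels were 96.6% and 2.72%, so the gene has a methylated and an almost unmethylated start in the same library. The TET1 sequence holds 10 CpGs, the UHRF1 sequence 36 and the DNMT3A sequence 26. Across 34943 RefSeq promoters of this length the median was 14 CpGs, and 56.3% held at least 10.

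Over the 382 CpGs together, the mean level was 15.4% in parental cells, 15.2% in line 1 and 15.6% in line 2. The differences from parental were -0.14 percentage points in line 1 and 0.27 in line 2, against -4.07 and -2.13 over all CpGs compared. On the complementary strand alone, which carries most of the reads, the members differed by -1.46 points in line 1 and -0.49 in line 2 (381 CpGs), and all CpGs by -4.03 and -2.09 (2143606 CpGs). The sign in line 2 and the size in line 1 thus depend on the forward-strand reads described for DNMT3A and DNMT3B, and under both counts the members moved by less than all CpGs. Most of them started low: 315 of the CpGs (82.5%) had a mean level under 20% over the 3 libraries, 25 (6.54%) lay in the middle and 42 were over 80%. Over all CpGs the shares of the 3 classes were 48.5%, 20.5% and 31.1%.

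**Figure D1:**
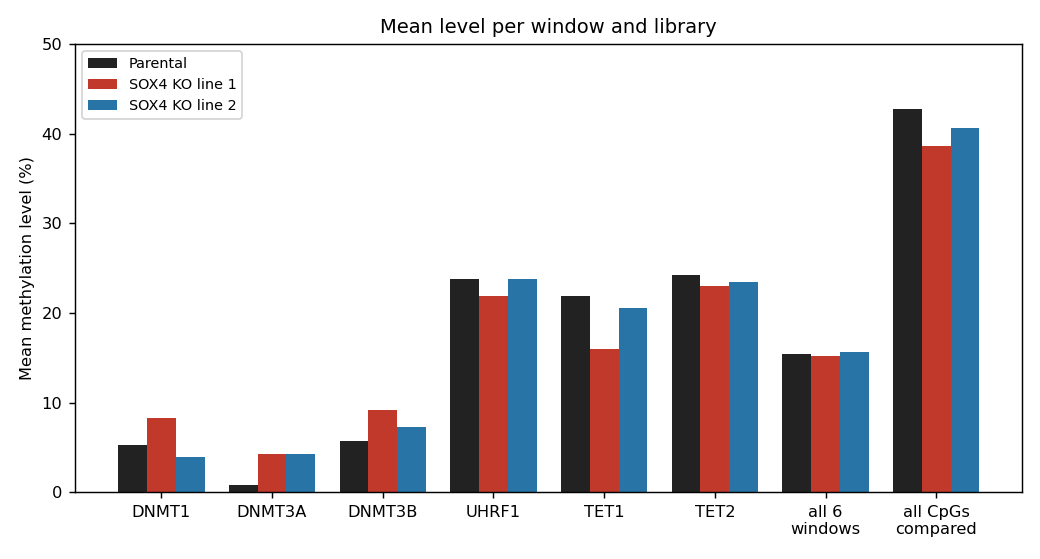
Mean methylation level (%, y axis) of the CpGs in each start-site window (x axis), in the 6 windows together and over all 2238764 CpGs compared, with 1 bar per library (parental, SOX4 KO line 1, SOX4 KO line 2). Each bar is 1 library, so there are no error bars; the windows together stay between 15.2% and 15.6%, while all CpGs range from 38.7% to 42.7%.

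Within the level classes, the middle CpGs of the windows lay below parental in both lines on average, while the sign for the low CpGs depended on the strand. The 315 low CpGs averaged 1.87% in parental cells, 2.74% in line 1 and 2.59% in line 2, and over all low CpGs the mean differences were -1.57 points in line 1 and -0.77 in line 2. The 25 middle CpGs averaged 51.2%, 39.9% and 46.8%. These are differences of -11.3 and -4.42 points, against -14.5 and -7.38 over all middle CpGs. Of the 25, 13 lay at TET1, with differences of -18.6 points in line 1 and -1.76 in line 2. The 8 of UHRF1 differed by -10.1 and -6.37 points. In line 1 the 1 of DNMT3B lay below parental (-11.5 points), but the 2 of DNMT1 (19.3 points on average) and the 1 of TET2 lay above. In line 2 the mean of each of these genes lay below parental. The average in line 1 is thus mainly that of TET1 and UHRF1. The 42 high CpGs averaged 95.4% in parental cells, with differences of -1.03 and -0.32 points. On the complementary strand alone the low CpGs differed by -0.79 points in line 1 and -0.20 in line 2, from 0.87 and 0.72 with both strands. With both strands the low CpGs of DNMT3A and DNMT3B lay above parental in each line (3.40 and 3.45 points, 3.76 and 1.66 points), and those of TET1 and TET2 below (-2.03 and -0.80 points, -1.97 and -1.10 points).

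Line 1 against parental gave 2 called CpGs among the members, both higher in line 1, where 0.599% of all CpGs were called higher and 4.46% lower. No member was called lower. Line 2 against parental gave 0 called CpGs by the Fisher exact test, against 0.0831% higher and 0.713% lower over all CpGs. At an unadjusted p under 0.05 there were 12 members in line 1 (4 higher, 8 lower) and 4 in line 2 (2 higher, 2 lower), which are 3.14% and 1.05% of the members against 12.8% and 7.60% of all CpGs. Line 1 against line 2 gave 1 called CpG, higher in line 1, against 0.184% of all CpGs called higher and 1.07% lower, and 13 members at an unadjusted p under 0.05 (3 higher, 10 lower), which are 3.40% of the members against 8.27% of all CpGs. No member was called in both lines with the same sign, where 0.658% of all CpGs were, although both comparisons share the parental library.

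The share called depends on the level. In line 1 against parental, 0.957% of all low CpGs, 21.4% of middle CpGs and 0.689% of high CpGs were called in either direction. Among the members, 0 of 315 low, 2 of 25 middle and 0 of 42 high CpGs were called. The share at an unadjusted p under 0.05 (Fisher exact test) also depends on the level. In line 1 it was 1.27% of low, 24% of middle and 4.76% of high members, against 5.54%, 40.2% and 6.02% of all CpGs. In line 2 it was 0.952%, 0% and 2.38% of members, against 3.06%, 22.7% and 4.77%. At these depths a moderate difference at a single CpG can be missed.

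**Figure D2:**
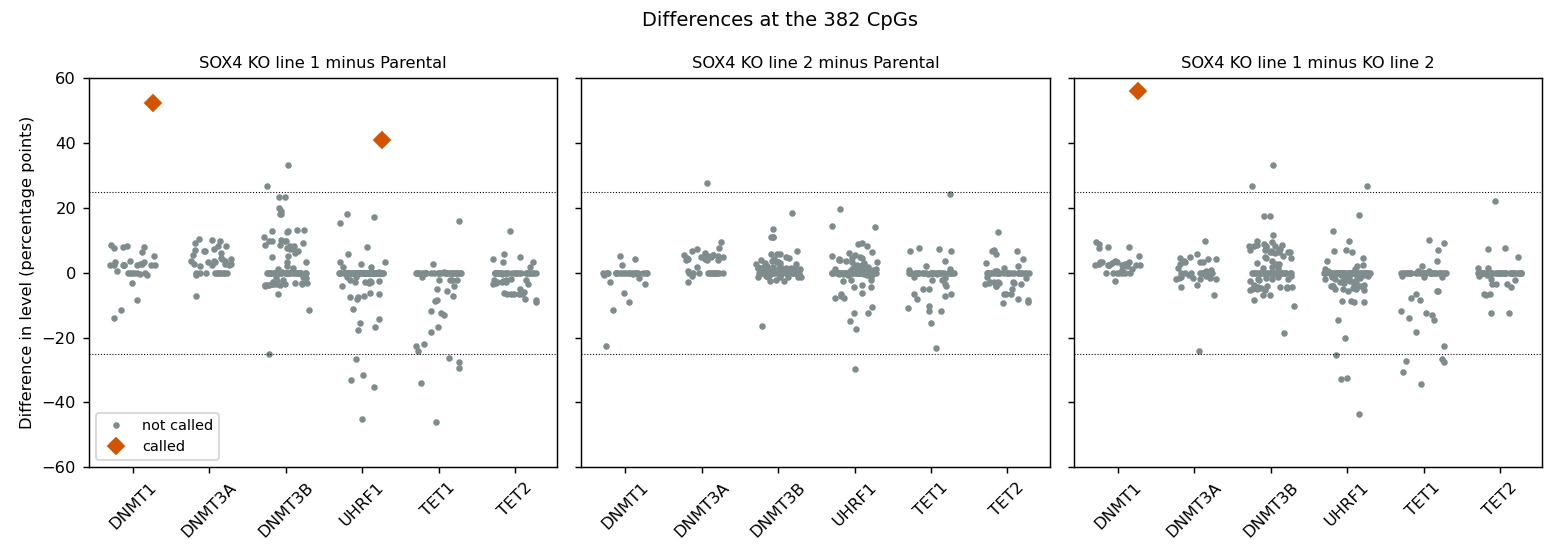
Difference in methylation level (percentage points, y axis) of each of the 382 CpGs by gene (x axis, points spread sideways for sight), for line 1 minus parental, line 2 minus parental and line 1 minus line 2. Orange diamonds are called CpGs (2, 0 and 1 in the 3 panels), grey points are not called, and dotted lines mark the minimum of 25 points.

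DNMT1, the enzyme that copies methylation after replication, had 34 of 65 CpGs compared around its start site at chr19:10305755 (- strand). The window mean was 5.28% in parental cells, 8.29% in line 1 and 3.89% in line 2, so line 1 lay above and line 2 below parental. The knockout mean was 6.09% ± 3.11 (SD, n = 2 lines), and its difference from parental (0.82 points) was smaller than that spread. The stretch from 305 to 502 bp downstream was almost free of methylation, with 24 CpGs at 0.38%, 2.83% and 0.10%. The 4 CpGs from 431 to 238 bp upstream averaged 29.2%, 20.7% and 18.0%, and none was called. The nearest compared CpG, 238 bp upstream, had 4 of 33 reads methylated in parental cells (3.40 to 28.2%), 1 of 26 in line 1 and 1 of 33 in line 2.

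The called CpG of DNMT1 lay 1381 bp downstream, at chr19:10304374. It had 8 of 26 reads methylated in parental cells (30.8%, interval 14.3 to 51.8%) and 15 of 18 in line 1 (83.3%, between 58.6 and 96.4%). Line 2 had 9 of 33 (27.3%, between 13.3 and 45.5%). Line 1 stood above both other libraries, with adjusted p = 0.0170 against parental and 0.0231 against line 2 by the Fisher exact test. The other 5 CpGs of that stretch, from 1127 bp downstream, were low in every library, and the line 1 differences from parental ranged up to 8.64 points. The call was that of 1 CpG, and line 2 was near parental there (difference -3.50 points, adjusted p = 1, Fisher exact test). With its 18 reads in line 1, the CpG is left out when at least 20 reads are asked for, and the call ends.

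The CpGs closest to the DNMT1 start could not be compared. Of the 23 CpGs seen in its RefSeq promoter, none passed the minimum, and the median depth there was 1 read per CpG in each library. Summed over the 29 CpGs within 300 bp that fell under the minimum, 0 of 52 reads were methylated in parental cells, 0 of 36 in line 1 and 0 of 69 in line 2. In such sums a read is counted at each CpG that it spans, so the separate DNA molecules can be far fewer. No methylated read was seen there in any of the 3 libraries, but the depth allows no comparison.

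DNMT3A, a de novo methyltransferase, had 39 of 79 CpGs compared, all between 198 bp upstream and 243 bp downstream of chr2:25565459 (- strand). Its window mean was 0.84% in parental cells, 4.24% in line 1 and 4.28% in line 2. Both lines lay above parental by about the same amount: the knockout mean was 4.26% ± 0.0310 (SD, n = 2 lines), 3.42 points above. The count was 10 methylated of 1155 reads in parental cells, 58 of 1287 in line 1 and 56 of 1217 in line 2. No CpG was called in any comparison, and the smallest adjusted p were 0.582 in line 1 and 0.290 in line 2 (Fisher exact test). That last value belongs to the CpG 219 bp downstream, where 0 of 24 reads were methylated in parental cells, 1 of 28 in line 1 and 5 of 18 in line 2. At the CpG 1 bp upstream of the start, 0 of 31, 0 of 29 and 0 of 25 reads were methylated.

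The difference at DNMT3A moved with the strand of the reads. In the parental library all reads of these CpGs came from the complementary strand, the strand that carried 87.0% of its reads overall. Line 1 also had 26 forward-strand reads over 15 of the CpGs, and line 2 had 24 over 24 of them. Every one of these was methylated, with at most 2 per CpG in line 1 and 1 in line 2. On the complementary strand alone the window means were 0.84%, 2.39% and 2.50%, so the difference fell from 3.42 to 1.61 points. Why the forward reads were methylated was not tested.

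DNMT3B, the other de novo methyltransferase, had 89 of 115 CpGs compared around chr20:31350191 (+ strand). Its mean was 5.72% in parental cells, 9.22% in line 1 and 7.29% in line 2, which put the knockout mean at 8.25% ± 1.37 (SD, n = 2 lines), 2.53 points above parental. Here too the difference moved with the forward strand. Summed over CpGs there were 108 such reads in line 1 and 80 in line 2, all methylated, and 0 in parental cells. They lay on 30 CpGs in line 1, with at most 4 per CpG, and on 41 in line 2, with at most 2. A read that spans several CpGs is counted at each, so these sums are not numbers of separate DNA molecules. On the complementary strand alone the means were 5.79%, 4.24% and 4.88% over 88 CpGs, so that both lines lay below parental, by 1.22 points on average. No direction can therefore be given for DNMT3B.

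For scale, CpGs that were low on the complementary strand and had 1 to 4 forward reads were counted over all CpGs compared. Their forward reads were 20.7% methylated in parental cells, 22.6% in line 1 and 17.4% in line 2, against 2.41%, 2.34% and 2.46% on the complementary strand of the same CpGs. Where such CpGs had at least 10 forward reads, those were 6.47%, 6.23% and 6.46% methylated. A few methylated forward reads at a low CpG were thus found across the libraries, parental cells included. At DNMT3A and DNMT3B, however, all forward reads of the knockout lines were methylated, and the parental library had 0 forward reads there. At TET1 the few forward reads were unmethylated, with 0 of 1 methylated in line 1 and 0 of 8 in line 2.

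Within the DNMT3B window no CpG was called. The 85 CpGs from 55 to 1201 bp downstream averaged 2.66%, 6.29% and 4.09%, and 3 CpGs from 2659 to 2838 bp downstream were methylated in all libraries (94.3%, 95.3% and 94.0%). The CpG nearest the start, 55 bp downstream, had 1 of 26, 0 of 12 and 2 of 37 reads methylated. The highest difference of the knockout mean from parental, 321 bp downstream, was 0 of 13 reads in parental cells, 4 of 12 in line 1 and 0 of 10 in line 2, with an adjusted p of 0.331 in line 1 (Fisher exact test). The lowest, 1196 bp downstream, went from 5 of 17 reads to 1 of 23 and 4 of 31. Those CpGs carried few reads, and their intervals overlapped. All values in this window sum both strands, and single CpGs are not given by strand here. The methylated forward-strand reads of line 1, at most 4 per CpG, may thus be among the 4 of 12 at 321 bp.

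UHRF1, which binds hemimethylated DNA and recruits DNMT1, had the most CpGs compared, with 107 of 120 CpGs compared around chr19:4909510 (+ strand). Its mean was 23.8% in parental cells, 21.9% in line 1 and 23.8% in line 2. The mean of the lines, 22.9% ± 1.30 (SD, n = 2 lines), differed from parental by -0.92 points, which is less than the spread of the lines. In every library the level fell from high to low within 500 bp upstream of the start site. Of the 8 parental CpGs over 80% within 500 bp of the start, all lay upstream, while the CpG 9 bp upstream had 0 of 22, 0 of 17 and 0 of 33 reads methylated. From 2657 to 2794 bp downstream, 11 CpGs were again at 97.0%, 98.9% and 95.7%.

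The level at the upstream edge of UHRF1 was lower in line 1 than in the other libraries at several CpGs, none of which was called. In the RefSeq promoter shown above, the 19 compared CpGs averaged 16.6% in parental cells, 6.30% in line 1 and 15.1% in line 2. At 66 bp upstream 9 of 12 reads were methylated in parental cells, 3 of 10 in line 1 and 15 of 24 in line 2. At 330 bp upstream the counts were 23 of 24, 22 of 35 and 37 of 42, with an adjusted p of 0.0638 in line 1 by the Fisher exact test. That CpG passed (adjusted p = 0.0499, Fisher exact test) when at least 20 reads were asked for in place of 10. The lowest difference of the knockout mean from parental was 56 bp upstream, from 5 of 12 reads to 1 of 10 and 3 of 25, with adjusted p of 0.808 and 0.822 (Fisher exact test).

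The called CpG of UHRF1 lay 2499 bp upstream, at chr19:4907011, far outside the promoter sequence. It had 31 of 60 reads methylated in parental cells (51.7%, interval 38.4 to 64.8%) and 25 of 27 in line 1 (92.6%, between 75.7 and 99.1%). Line 2 had 25 of 38 (65.8%, between 48.6 and 80.4%). The difference passed in line 1 (40.9 points, adjusted p = 0.00558, Fisher exact test) and missed in line 2 (14.1 points, adjusted p = 1), and line 1 against line 2 gave an adjusted p of 0.323. Whether the lines differ here is thus not shown. The CpG beside it, 2506 bp upstream, had 43 of 60, 24 of 27 and 27 of 38 reads methylated, and that 2456 bp upstream had 20 of 53, 7 of 23 and 8 of 39.

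**Figure D3:**
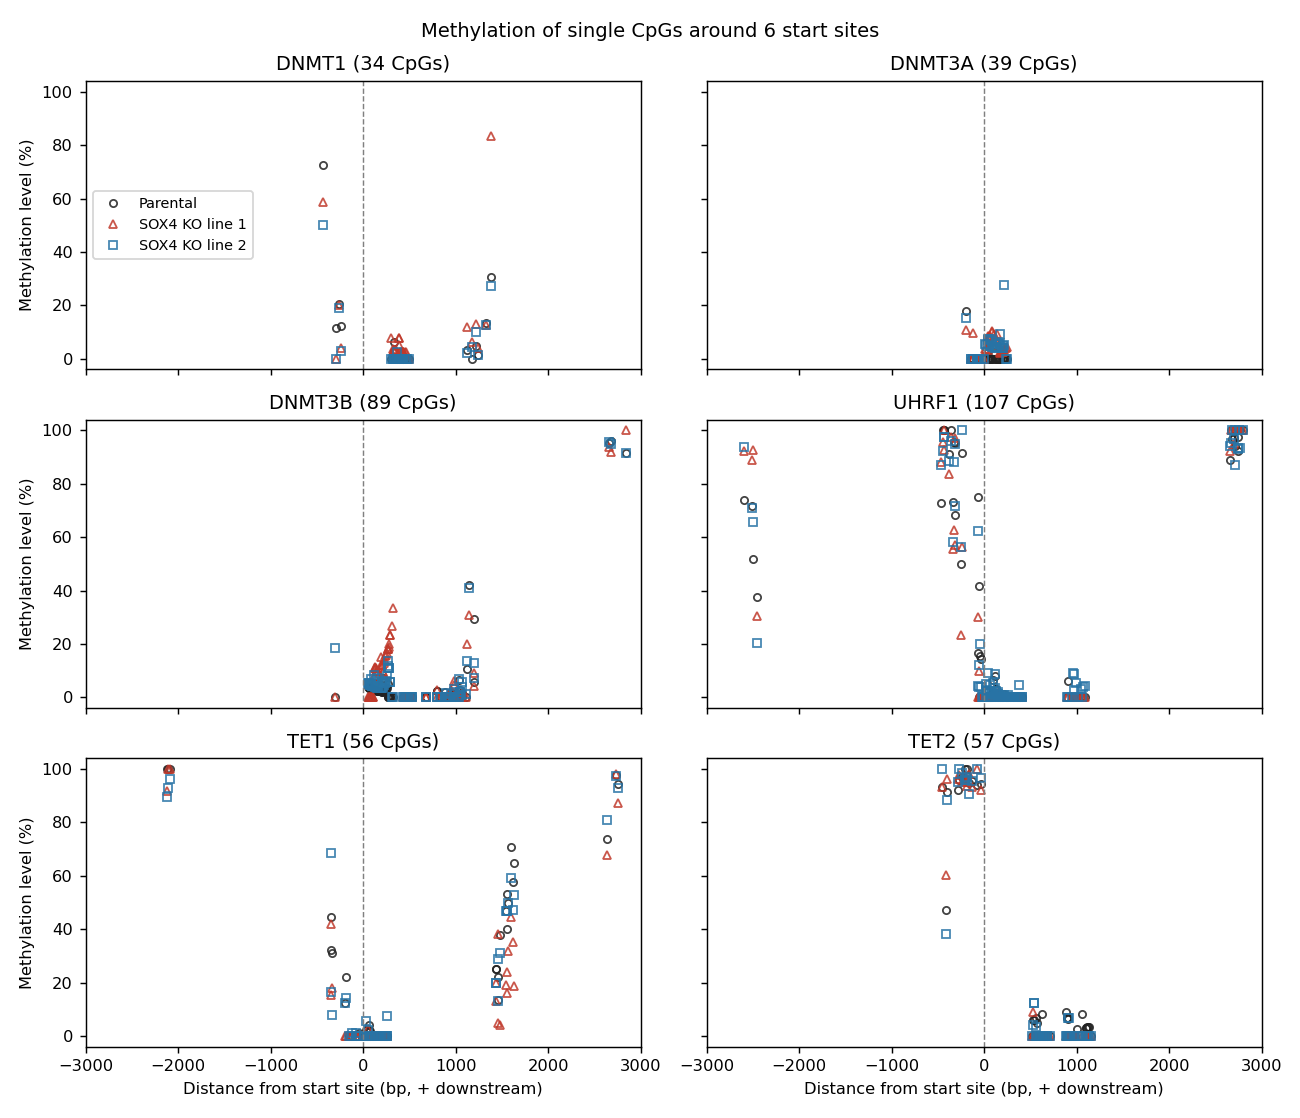
Methylation level (%, y axis) of each compared CpG against its distance from the start site (bp, x axis, positive downstream on the gene's strand), with 1 panel per gene and 1 symbol per library (circle parental, triangle line 1, square line 2). The dashed line is the start site. Levels just downstream of it are low in DNMT3A, DNMT3B, UHRF1 and TET1. DNMT1 and TET2 have no compared CpG there, the first lying 305 and 514 bp downstream. At TET2 the CpGs from 455 to 32 bp upstream averaged over 92% in each library.

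TET1, an oxidase that starts the removal of methylation, had 56 of 61 CpGs compared around chr10:70320117 (+ strand). Its mean was 21.9% in parental cells, 15.9% in line 1 and 20.5% in line 2. By this mean both lines lay below parental, with differences of -5.96 points in line 1 and -1.36 in line 2. With reads pooled over the window the levels were 17.9%, 14.3% and 20.2%, and the knockout difference was -0.60 points. Pooling weighs each CpG by its depth. From 2633 to 2758 bp downstream lay 118 of the 1993 parental reads and 207 of the 2221 line 2 reads. Pooled within each stretch, line 2 lay below parental (100% and 92.9%, 3.70% and 3.50%, 42.3% and 37.2%, 92.37% and 92.27%, parental first). Within 1 kb of the start the knockout difference of the CpG means was -1.21 points. Together the knockout lines averaged 18.2% ± 3.25 (SD, n = 2 lines), 3.66 points under parental, so the difference was close to the spread of the lines. It was the lowest of the 6 window differences in line 1, and 6 of the 12 members with an unadjusted p under 0.05 in line 1 lay here, all lower.

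Most of the difference at TET1 lay beyond the promoter, in 12 CpGs from 1438 to 1631 bp downstream. They averaged 42.3% in parental cells, 22.5% in line 1 and 38.6% in line 2, with 126 of 298, 54 of 245 and 123 of 331 reads methylated. Of these CpGs, 4 had an unadjusted p under 0.05 in line 1 and 0 in line 2, and none was called. Over all middle CpGs 40.2% had such a p in line 1, with a mean difference of -14.5 points, and nothing particular to TET1 is shown by this count. The nearest to a call was 1475 bp downstream, at chr10:70321592, with 11 of 29 reads in parental cells, 1 of 25 in line 1 and 10 of 32 in line 2 (line 1 adjusted p = 0.0501, Fisher exact test). It passed when only autosomes were adjusted (0.0499) or at least 20 reads were asked for (0.0388). The lowest difference of the knockout mean from parental was 1631 bp downstream, from 11 of 17 reads to 3 of 16 and 9 of 17, and the highest 1464 bp downstream, from 6 of 27 to 8 of 21 and 9 of 31.

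The TET1 promoter itself was nearly free of methylation. The 38 CpGs from 350 bp upstream to 263 bp downstream averaged 4.05%, 2.06% and 3.62%, and the CpG 15 bp downstream had 0 of 51 reads methylated in parental cells (up to 6.98%), 0 of 36 in line 1 (up to 9.74%) and 0 of 60 in line 2 (up to 5.96%). In the RefSeq sequence the pooled reads were 21 methylated of 661 in parental cells, 0 of 502 in line 1 and 20 of 807 in line 2. Nearly all of the methylated reads of parental cells and line 2 sat on 2 CpGs. At 181 bp upstream 13 of 59 reads were methylated in parental cells, 0 of 35 in line 1 and 10 of 71 in line 2. The line 1 difference of -22.0 points had an adjusted p of 0.0300 by the Fisher exact test but stayed under the minimum of 25 points. At 190 bp upstream the counts were 7 of 56, 0 of 33 and 8 of 65.

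**Figure D4:**
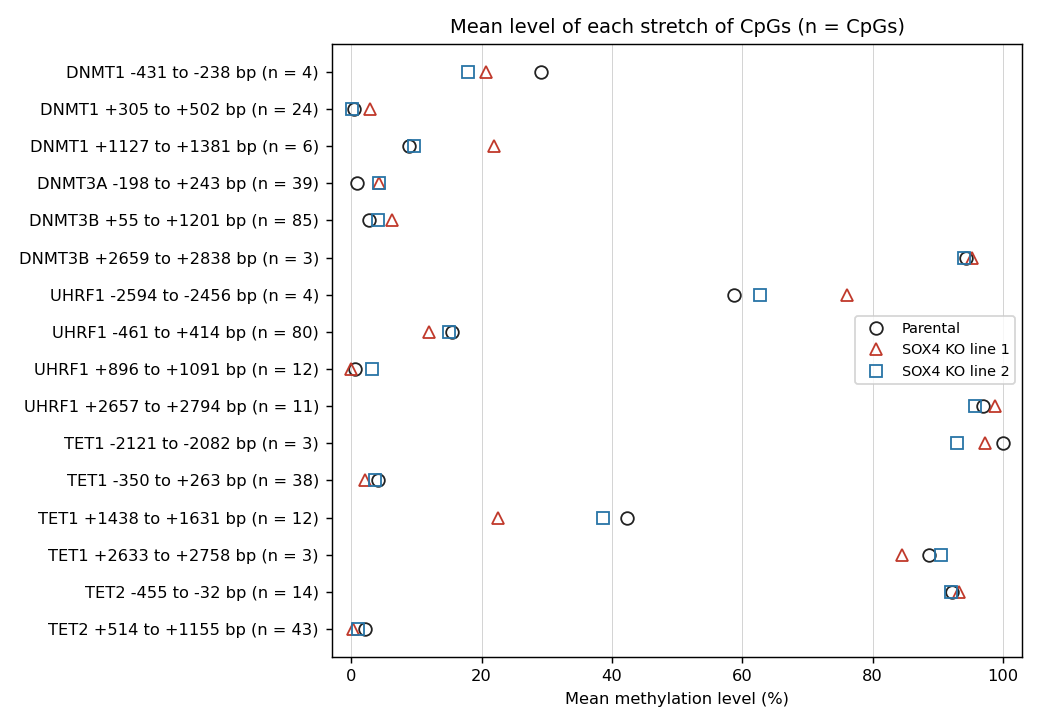
Mean methylation level (%, x axis) of each stretch of at least 3 compared CpGs (y axis, gene and distances from the start site in bp, n = number of CpGs), with 1 symbol per library. The libraries lie within a few points in most stretches. Line 1 stands apart at TET1 from 1438 to 1631 bp (22.5% against 42.3% and 38.6%) and at UHRF1 from 2594 to 2456 bp upstream. It also does at DNMT1 from 1127 to 1381 bp, where 1 CpG of 6 was high (83.3% in line 1). Parental cells stand apart at DNMT1 from 431 to 238 bp upstream (29.2% against 20.7% and 18.0%).

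TET2, the related oxidase, had 57 of 102 CpGs compared around chr4:106067032 (+ strand), with window means of 24.3%, 23.1% and 23.4%. The knockout mean was 23.2% ± 0.256 (SD, n = 2 lines), 1.03 points below parental. The window held a high and a low stretch. The 14 CpGs from 455 to 32 bp upstream averaged 92.1% in parental cells, 93.2% in line 1 and 92.0% in line 2, and the CpG nearest the start had 17 of 18, 12 of 13 and 28 of 29 reads methylated. The 43 CpGs from 514 to 1155 bp downstream averaged 2.18%, 0.21% and 1.07%, with 20 of 931, 1 of 724 and 12 of 1236 reads methylated. No CpG was called, and the smallest adjusted p was 0.335 in line 1 (Fisher exact test).

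The start of the first TET2 promoter was therefore methylated in every library, and the second lay in the unmethylated stretch. Over the 9 CpGs of the first sequence the means were 96.6%, 95.7% and 96.3%. Over the 14 of the second they were 2.72%, 0% and 0.97%. Around the first start, 7 CpGs within 300 bp of the start fell under the minimum, with 73 of 77 reads methylated in parental cells, 42 of 44 in line 1 and 78 of 83 in line 2. The intermediate CpG of the upstream stretch, 407 bp before the start, had 18 of 38, 29 of 48 and 21 of 55 reads methylated, and its neighbour at 396 bp had 42 of 46, 50 of 52 and 61 of 69. The highest difference of the knockout mean from parental, 539 bp downstream, was from 0 of 17 reads to 0 of 13 and 3 of 24, and the lowest, 883 bp downstream, from 1 of 11 to 0 of 11 and 0 of 26.

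Other genes of the pathway were taken from a list of 29, of which 19 had a RefSeq promoter that could be placed, with 1322 compared CpGs in their windows. In line 1 against parental, 4 of these CpGs were called higher and 4 lower, and in line 2 1 was called higher and 0 lower. Over all CpGs the shares were 0.599% higher and 4.46% lower in line 1, and 0.0831% and 0.713% in line 2. The median difference of the knockout mean over the 19 windows was -0.06 points, and the range ran from -1.96 (ZBTB33, a reader of methylated DNA) to 5.61 (NTHL1, a base excision repair glycosylase, at 9.22%, 17.5% and 12.1%). None reached 10 points. CXXC1, which binds unmethylated CpGs, was the gene with a CpG called in both lines, higher in each. This was 1 of the 1322 CpGs, where 0.658% of all CpGs were called in both lines with the same sign. Both comparisons share the parental library, so nothing particular to CXXC1 is shown by this call. The CXXC1 window of 101 CpGs averaged 3.16% in parental cells, 5.66% in line 1 and 6.28% in line 2. The windows of the list were not split by strand. Whether the higher levels at NTHL1 and CXXC1 depend on forward-strand reads, as at DNMT3A and DNMT3B, was therefore not tested.

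By role, the 4 placed partners of maintenance and de novo methylation (UHRF2, HELLS, USP7 and PCNA) had differences from -0.85 to 0.09 points. The 4 genes of methyl donor supply (MAT2A, MAT2B, AHCY and AHCYL1) had differences from -0.98 to -0.01. The 4 of oxidation and base excision ranged from -1.45 to 5.61, and the 7 readers from -1.96 to 2.81. The 6 writers and erasers ran from -3.66 at TET1 to 3.42 at DNMT3A, a range that holds those of the partners, the donor genes and the readers. Both ends depend on the setting. DNMT3A was at 1.61 on the complementary strand alone. TET1 was at -0.60 with pooled reads, which weigh each CpG by its depth, and at -1.21 within 1 kb.

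**Figure D5:**
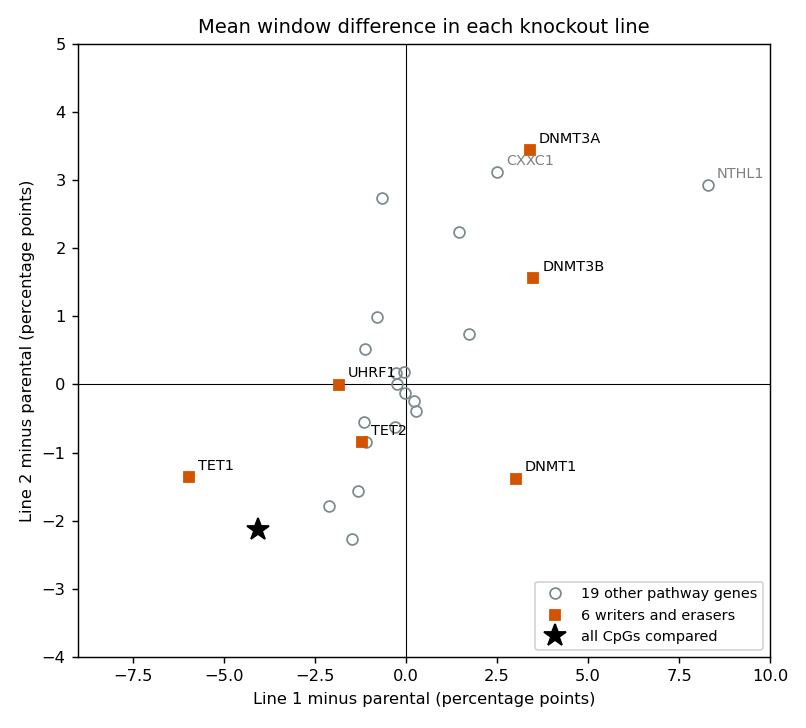
Mean difference of each start-site window from parental in line 1 (x axis, percentage points) and in line 2 (y axis, percentage points), for the 6 writers and erasers (squares), 19 other pathway genes (circles) and all CpGs compared (star, at -4.07 and -2.13). Both axes share the parental library, and TET1 is the window furthest to the left. NTHL1 lies furthest right, followed by DNMT3B and DNMT3A, and DNMT3A lies furthest up, followed by CXXC1 and NTHL1.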

How the data were processed

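The deposited files, 1 per library, hold for each cytosine and strand the methylated and total read counts and the methylation fraction that the authors computed from them; the fraction was recomputed from the counts and matched within 5e-07. DNA was sheared to 150 to 200 bp from 500 ng, captured with the TruSeq Methyl Capture EPIC kit, bisulfite-treated and sequenced. Positions are on GRCh37 (hg19), per the submitters' processing notes; the aligner, caller and duplicate removal are not given in the sources used here. Reads that are PCR copies would make the intervals too narrow.

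Strands were summed per CpG, and a minimum of 10 reads in each library was asked for. Fisher exact tests with Benjamini-Hochberg adjustment over all such CpGs were run in Python 3.11.15 (numpy 2.4.6, numba 0.67.0, scipy 1.17.1) and tested on simulated data. In that test isolated changes of moderate size were often missed at these depths, and its pass mark was limited, after the first outcomes were seen, to large changes simulated at many CpGs at once. Windows are given as the mean of CpG levels. Read counts of a library, window, stretch or promoter are summed over its CpGs, so a read that spans several CpGs counts at each. Stretches are compared CpGs with gaps up to 200 bp, and level classes use the mean over the libraries (under 20%, over 80%). The 6 members and the pathway list were chosen with earlier results of these data known; stretches and the strand counts were added after the levels were seen. Single CpGs named are the nearest to the start, those with the highest and lowest difference of the knockout mean from parental, and those called; others (UHRF1 at 66, 330, 2456 and 2506 bp, TET1 at 181, 190 and 1475 bp, TET2 at 396 and 407 bp) were picked after their values were seen. ZBTB33 and NTHL1 mark the ends of a range, and CXXC1 follows the rule on CpGs called in both lines. RefSeq promoters were placed where the CpG spacing had 1 best match of at least 9 CpGs and every CpG of the files in that place lay in the sequence; the last 2 conditions were set after the files were seen. No annotation of GRCh37 was used, so exons and introns are not given, and the cell line was not checked from its methylation.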

Additional observations from a re-analysis of the deposited data

How the results depend on the processing

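Of 102 values of the 10 results under alternative settings, 17 moved, by 1 SD of the knockout lines or more for a window and by over 1.5 times for a count. Where the lines lie far apart this leaves room for large shifts among the other 85. The 6 window differences kept their sign in 50 of 54 values. Reads of the complementary strand only gave 1.61 points at DNMT3A and -1.22 at DNMT3B, from 3.42 and 2.53. Pooled reads, which weigh each CpG by its depth, gave 3.69 at DNMT3A, 2.61 at TET2 (from -1.03) and -0.60 at TET1 (from -3.66). At TET2 neither stretch rose when pooled on its own: 93.9%, 93.8% and 93.6% upstream, and 2.15%, 0.14% and 0.97% downstream. The upstream stretch held 837 of 1768 reads in parental cells, 778 of 1502 in line 1 and 1261 of 2497 in line 2. With 5 reads DNMT3A was 2.81, with 20 reads 3.53, and with windows of 5 kb 4.07, where TET2 was -1.68. Windows of 1 kb put TET2 at -0.66, TET1 at -1.21, UHRF1 at -1.73 and DNMT1 at -0.48, and left 0 calls in line 1 against parental and 0 in line 1 against line 2. Line 1 against parental had 1 call at 50 points and 1 at an adjusted p of 0.01, and line 1 against line 2 had 0 calls at that p, with 20 reads, and with depths thinned to the smallest. Windows of 5 kb, 20 reads, autosomes only and a minimum of 10 points each gave 3 calls in line 1 against parental. With 20 reads the DNMT1 call ended and UHRF1 at 330 bp upstream and TET1 at 1475 bp downstream were added; the others added TET2 at 4941 bp upstream, TET1 at 1475 bp and TET1 at 181 bp to the reported 2. Leaving out a knockout line gave 0 and 2 calls in the remaining line, and the window differences without line 1 and without line 2 were -1.38 and 3.01 at DNMT1, 1.57 and 3.50 at DNMT3B, -0.0036 and -1.84 at UHRF1, and -1.36 and -5.96 at TET1. Over all members the complementary strand, an alternative chosen after seeing the data, gave -1.46 and -0.49 points in line 1 and line 2, from -0.14 and 0.27. The cause of the shifts under settings other than pooling was not tested. No paired analysis was possible because only 1 parental library was at hand. That single library, 2 knockout lines and depths of about 30 reads limit every comparison.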
